A study of Mus musculus with 8 samples.

Results

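The TNF superfamily was examined in mouse dendritic cells under low oxygen, with its ligands taken as the genes named Tnfsf followed by a number and its receptors as the genes named Tnfrsf followed by a number. The rule found 29 genes with a probe set of their own, 9 ligands and 20 receptors, among 22180 genes so measured on the arrays. Of these 29, 24 were bright enough to be tested and 5 were dim. The cells were wild-type dendritic cells from the bone marrow of female C57BL/6 mice. The sources used here give neither the age of the mice nor their number in an experiment. They were grown for 7 days with GM-CSF at 20 ng/ml under 21% oxygen, purified to over 98% on CD11c beads, and moved for 2 days to 2% oxygen (about 14 mmHg), still with GM-CSF. For the last 6 hours they were either left in medium or given SCF, which activates the Kit receptor, at 100 ng/ml. This was done in 4 separate experiments named BC, D2, E and I, so that 4 medium and 4 SCF arrays form 4 pairs, and all 8 cultures share the hypoxia, the GM-CSF and the purification.

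TNF superfamily ligands are mostly membrane-anchored trimers that can be shed, and they bind trimeric receptors on neighbouring cells. Some receptors carry a death domain and can start apoptosis or inflammatory signalling, while others bind TRAF adaptors and lead to NF-kB. Dendritic cells are known for using ligands such as OX40L, the product of Tnfsf4, and TL1A, the product of Tnfsf15, to costimulate T cells, and for receiving survival signals through receptors such as RANK, the product of Tnfrsf11a.

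Of 15 listed dendritic cell markers 14 were measured, and all 14 were above the intensity filter, and their summed intensity on the linear scale lay between 11686 and 12411 in medium and between 11958 and 12311 with SCF. None of the 7 measured T and NK cell markers and 1 of 6 B and plasma cell markers passed the filter. The summed intensity of the B and plasma cell list was 69.3 to 77.2 in medium and 69.5 to 72.3 with SCF. The macrophage and monocyte list, with 8 of 8 measured markers above the filter, reached 2136 to 2736 in medium and 1879 to 2726 with SCF. Most markers of neutrophils (1 of 7 above the filter), of mast cells and basophils (2 of 9) and of stroma and endothelium (2 of 6) were dim, and 3 of 5 plasmacytoid dendritic cell markers passed it. Array medians lay between 13.3 and 13.9. In cultures read as a whole, fewer cells of a type and less RNA per cell cannot be told apart.

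Values below are log2 intensities, and a difference of log2 values is a ratio of intensities. A gene counted as bright enough to be tested when its mean over the 8 arrays reached 4.05, the median over all probe sets with a gene symbol. Intensities of different probe sets also depend on their probes, so levels are compared only within a gene. Where 4 values are given for a group, they stand in the order BC, D2, E, I. Among ligands the dim genes were Tnfsf10, which encodes TRAIL (3.16 ± 0.08 in medium and 3.16 ± 0.05 with SCF, SD, n = 4 in each), and Tnfsf14, which encodes LIGHT (3.82 ± 0.13 and 3.74 ± 0.11). Among receptors they were Tnfrsf17, the plasma cell receptor BCMA (2.94 ± 0.07 and 2.98 ± 0.09), Tnfrsf19, an orphan receptor also known as TROY (3.59 ± 0.12 and 3.61 ± 0.05), and Tnfrsf8, which encodes CD30 (3.78 ± 0.12 and 3.77 ± 0.14). No array of these 5 genes exceeded 3.99. The ligand genes Tnfsf12 and Tnfsf13 share 1 probe set with a read-through gene and were not analysed here.

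The comparison of SCF with medium asked whether Kit stimulation altered these genes within 6 hours. None of the ligands and receptors was called: 0 of the 24 tested members passed an adjusted p of 0.05 in limma, and so did 0% of the 12668 probe sets tested. Before adjustment, 1 member (Tnfsf15) had a p under 0.05, beside 4.21% of all probe sets. The fitted log2 differences of the members ran from −0.14 to 0.12 with a median of −0.03, beside a median of 0.00077 over all probe sets tested. The members' median turned to 0.0040 without BC. The 95% interval lay within 1.5-fold in both directions for all 24 members, and the bound farthest from 0 stood at 1.38-fold. Limma draws each gene's variance toward that of all probe sets tested, and these bounds rest on that. For Tnfsf18 the SD of the 4 pair differences was 0.49, and its interval is narrower than its own spread alone would give. Medium and SCF arrays overlapped in all 24 members, while they did not overlap in 0.971% of all probe sets. Of the 24 differences 14 lay below 0, or 16 after a repeated quantile normalization and 18 with the array medians equalized. The size of this majority moved with the scaling, as did the median over all probe sets tested, to −0.0105 and −0.0185. The members' median stayed below 0 under all 3.

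**Figure D1:**
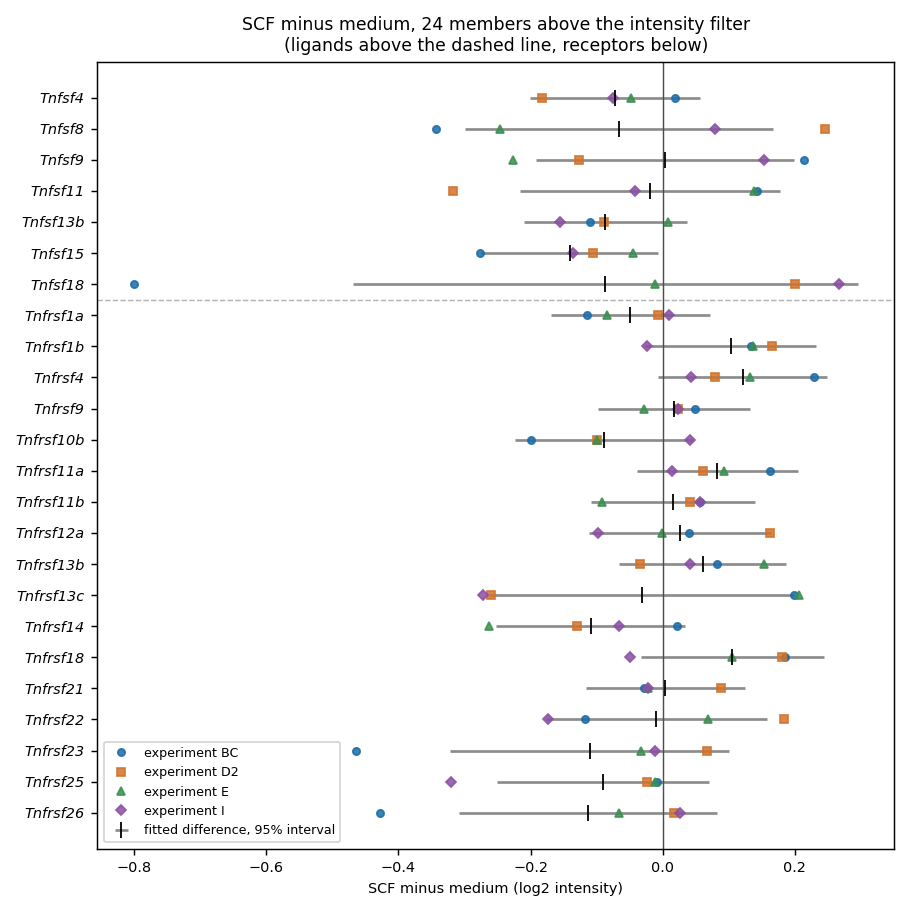
Difference of SCF minus medium in log2 intensity (horizontal axis) for the 24 members above the intensity filter, with 1 coloured point per experiment, a black tick for the fitted difference and a grey bar for its 95% interval. The fitted differences lie between −0.14 and 0.12, and in most genes the 4 experiments fall on both sides of 0; the point farthest from 0 is Tnfsf18 in BC.

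Among the ligands, 6 of the 7 tested had a fitted difference below 0, or 7 of 7 under both other scalings. The ligand that turned was Tnfsf9, with 0.0034 as deposited. The median over all probe sets tested moved down as well, to −0.0105 after quantile normalization and −0.0185 with the array medians equalized. Tnfsf15, the gene of the costimulatory ligand TL1A, measured 6.95, 7.45, 7.41 and 6.69 in medium and 6.67, 7.34, 7.36 and 6.55 with SCF. The SCF array was the lower one of all 4 pairs, a pattern found in 6.45% of all probe sets, but its group ranges overlapped widely. The log2 difference was −0.14 (SE 0.06, 95% interval −0.27 to −0.01, unadjusted p = 0.042, limma adjusted p = 0.945), and it did not pass. Tnfsf13b, which encodes the B cell survival factor BAFF, measured 5.09, 5.29, 5.15 and 5.15 in medium and 4.98, 5.20, 5.16 and 5.0 with SCF. The SCF array was lower in 3 of these pairs and level with medium in E, for a difference of −0.09 (SE 0.05, limma adjusted p = 0.945).

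Tnfsf4, the OX40 ligand gene, measured 8.30, 8.71, 8.38 and 8.50 in medium and 8.32, 8.53, 8.33 and 8.42 with SCF. The medium array of D2 was the highest and the groups overlapped, and the difference was −0.07 (SE 0.05). It was −0.03 without D2. Tnfsf9, the ligand of the costimulatory receptor Tnfrsf9, measured 5.97, 6.28, 6.47 and 6.34 in medium and 6.18, 6.15, 6.25 and 6.49 with SCF. Its pairs went up in BC and I and down in D2 and E, with a fitted difference of 0.0034 (SE 0.08). Tnfsf11, which encodes RANKL, the osteoclast differentiation factor, measured 4.47, 4.65, 4.46 and 4.54 in medium and 4.61, 4.34, 4.59 and 4.50 with SCF. Its pairs went both ways as well, and the difference was −0.02 (SE 0.08), or 0.08 without D2.

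Tnfsf8 and Tnfsf18 had the widest spread among the ligands. Tnfsf18, which encodes GITRL, measured 4.37, 4.75, 4.16 and 3.43 in medium and 3.56, 4.95, 4.15 and 3.7 with SCF. The difference was −0.80 in BC, against 0.20 in D2, −0.01 in E and 0.27 in I. The fitted difference was −0.09 (SE 0.16, 95% interval −0.47 to 0.30), and it turned to 0.15 without BC. Tnfsf8, which encodes the CD30 ligand, measured 6.47, 6.75, 7.30 and 6.17 in medium and 6.13, 6.99, 7.06 and 6.25 with SCF. BC and E were lower with SCF and D2 and I higher, for a difference of −0.07 (SE 0.10), or 0.03 without BC.

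Receptors that bind TRAF adaptors and costimulate leukocytes included the genes with the smallest p among receptors. Tnfrsf4, the OX40 gene, measured 7.14, 6.67, 6.48 and 6.99 in medium and 7.37, 6.75, 6.61 and 7.04 with SCF. It was higher with SCF in 4 of 4 experiments, as were 6.43% of all probe sets, by 0.12 (SE 0.05, 95% interval −0.01 to 0.25, limma adjusted p = 0.945), or by 0.08 without BC. The differences within pairs were small beside the distances between experiments. Tnfrsf18, the GITR gene, measured 8.18, 7.87, 7.60 and 8.32 in medium and 8.36, 8.05, 7.71 and 8.27 with SCF. It was higher with SCF in BC, D2 and E but not in I, for a difference of 0.11 (SE 0.06, limma adjusted p = 0.945). Tnfrsf9, a costimulatory receptor gene, measured 10.43, 10.30, 10.36 and 10.42 in medium and 10.48, 10.33, 10.33 and 10.45 with SCF. All 8 arrays of Tnfrsf9 lay within 0.2 of each other, and the 95% interval of its difference was −0.10 to 0.13.

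Tnfrsf14, the gene of the LIGHT receptor HVEM, measured 4.93, 4.92, 5.12 and 4.93 in medium and 4.95, 4.79, 4.85 and 4.86 with SCF. The medium array of E stood above the others, and the difference of −0.11 (SE 0.06) was −0.06 without E. Tnfrsf1b, the gene of TNF receptor 2, measured 9.46, 9.29, 9.40 and 9.66 in medium and 9.59, 9.45, 9.53 and 9.64 with SCF. It was higher with SCF in BC, D2 and E and level in I, by 0.10 (SE 0.06, limma adjusted p = 0.945). Tnfrsf12a, the gene of Fn14, the receptor of TWEAK, measured 4.64 ± 0.12 in medium and 4.66 ± 0.13 with SCF.

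Death domain receptor genes did not pass either. Tnfrsf25, the receptor of TL1A, measured 4.42, 4.35, 4.40 and 4.66 in medium and 4.41, 4.32, 4.39 and 4.34 with SCF. Each pair was lower with SCF, a pattern found in 6.45% of all probe sets, by −0.32 in I and −0.02 in D2 and by less in BC and E. The fitted difference of −0.09 (SE 0.07) was −0.01 without I. Tnfrsf1a, the gene of TNF receptor 1, measured 6.63 ± 0.20 in medium and 6.58 ± 0.15 with SCF. Tnfrsf10b, the mouse TRAIL receptor gene, measured 6.83 ± 0.19 and 6.74 ± 0.21, a difference of −0.09 (SE 0.06) that was −0.05 without BC. Tnfrsf21, which encodes death receptor 6, measured 7.10 ± 0.13 in both groups. For these 4 genes the intervals together reached from −0.25 to 0.12.

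Among the receptors of RANKL, Tnfrsf11a, the RANK gene, measured 8.25, 8.02, 8.02 and 8.44 in medium and 8.41, 8.08, 8.11 and 8.46 with SCF. It was higher with SCF in 4 of 4 experiments, as were 6.43% of all probe sets, by 0.08 (SE 0.05, 95% interval −0.04 to 0.20, limma adjusted p = 0.945). Tnfrsf11b, which encodes the secreted decoy osteoprotegerin, measured 5.60, 5.70, 5.64 and 5.75 in medium and 5.66, 5.74, 5.55 and 5.80 with SCF. The difference was 0.02 (SE 0.05) and turned to −0.0036 with the array medians equalized. Receptors of BAFF among the tested members are Tnfrsf13b, the TACI gene, and Tnfrsf13c, the BAFF receptor gene. Tnfrsf13b measured 5.0, 5.13, 5.02 and 4.90 in medium and 5.08, 5.09, 5.17 and 4.95 with SCF, for a difference of 0.06 (SE 0.05). Tnfrsf13c measured 5.12, 5.37, 5.19 and 5.32 in medium and 5.32, 5.11, 5.40 and 5.04 with SCF, for a difference of −0.03 (SE 0.10). Its pairs differed in opposite ways, up in BC and E and down in D2 and I.

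Tnfrsf22, Tnfrsf23 and Tnfrsf26 are neighbouring mouse genes, of which Tnfrsf22 and Tnfrsf23 encode decoy receptors of TRAIL. They are close relatives in sequence, so their probes may in part read each other's transcripts. Tnfrsf23 measured 7.86, 7.69, 7.92 and 7.41 in medium and 7.39, 7.76, 7.89 and 7.39 with SCF. Tnfrsf26 measured 7.08, 6.92, 7.23 and 7.11 in medium and 6.65, 6.93, 7.16 and 7.14 with SCF. Both genes were lower with SCF in BC, by −0.46 and −0.43, and their other pairs differed by at most 0.07. The fitted differences of −0.11 (SE 0.09) for Tnfrsf23 and −0.11 (SE 0.08) for Tnfrsf26 rested on that experiment, since they were 0.0073 and −0.01 without BC. Tnfrsf22 measured 4.70 ± 0.17 and 4.69 ± 0.22. In BC the macrophage and monocyte markers also differed within the pair, with a summed intensity of 2194 in medium and 1879 with SCF, and their part in these values was not tested. Over all members tested, 7 of 24 pairs differed by more than 0.2 in BC against 3 in D2, 4 in E and 3 in I. Over all probe sets tested these shares were 21.5%, 21.0%, 14.4% and 15.6%.

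The same arrays show how far the superfamily varied between the 4 experiments. Limma's F-test over the experiments, with treatment as a term, called 4 of the 24 members at an adjusted p of 0.05, or 16.7%, beside 3.35% of all probe sets tested. They were the ligand genes Tnfsf15 and Tnfsf8 and the receptor genes Tnfrsf4 and Tnfrsf18. The median range of experiment means was 0.32 over the members tested and 0.20 over all probe sets tested. Here the experiments' cultures and the processing of their arrays cannot be told apart. The test sets the experiments against the spread left within pairs, drawn by limma toward that of all probe sets tested.

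Tnfsf8 spanned the widest range of the 4, from an experiment mean of 6.21 in I to 7.18 in E, or 1.96-fold (limma adjusted p = 0.0333). Tnfsf15 ran from 6.62 in I to 7.39 in D2, or 1.71-fold (limma adjusted p = 0.0124). For both ligands the arrays of BC and I all lay below those of D2 and E. Tnfrsf4 ran the other way, from 6.54 in E to 7.25 in BC, or 1.64-fold (limma adjusted p = 0.019), and Tnfrsf18 from 7.66 in E to 8.29 in I, or 1.56-fold (limma adjusted p = 0.0271). For both receptors all arrays of BC and I lay above those of D2 and E. In each of the 4 genes the distance between experiments was several times the fitted SCF difference. These genes were picked by the test between experiments and none was called for SCF, so this follows largely from the choice.

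**Figure D2:**
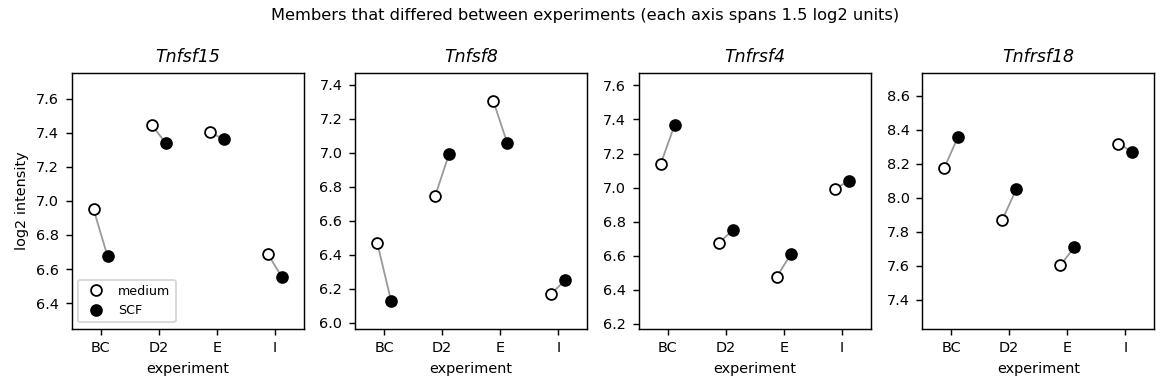
Log2 intensity (vertical axis) in each experiment for the 4 members that differed between experiments, with open circles for medium, filled circles for SCF and a line joining each pair. Tnfsf15 and Tnfsf8 are lower in BC and I than in D2 and E, and Tnfrsf4 and Tnfrsf18 are higher there; each vertical axis spans 1.5 log2 units.

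With 1 experiment left out, Tnfsf15 kept an adjusted p between 0.0199 and 0.0466 in limma. Tnfsf8 stood at 0.116 without E and 0.0739 without I, Tnfrsf4 at 0.0742 without BC and 0.0924 without E, and Tnfrsf18 at 0.0527 without BC, 0.0503 without D2 and 0.156 without E. The arrays of BC and I lay wholly on 1 side of those of D2 and E in 7 of the 24 members, or 29.2%, and in 15.4% of all probe sets tested. That arrangement was picked after the values were seen, and it held for 53.8% of all probe sets called between experiments, so it was common well beyond this family. It held in the ligands Tnfsf15, Tnfsf8 and Tnfsf13b, lower in BC and I, and in the receptors Tnfrsf4, Tnfrsf18, Tnfrsf11a and Tnfrsf9, higher in BC and I.

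Other members spread between experiments without passing. Tnfsf18 ranged from 3.57 in I to 4.85 in D2, or 2.44-fold (limma adjusted p = 0.0747), with 0.0159 when BC was left out. Its mean over the 8 arrays was 4.14, just above the filter of 4.05. The means in I (3.57) and BC (3.97) lay below the filter, at the level of the genes called dim. Tnfrsf11a ranged from 8.05 in D2 to 8.45 in I (limma adjusted p = 0.0523), Tnfrsf10b from 6.5 in E to 6.93 in I (0.0699) and Tnfrsf1a from 6.43 in I to 6.83 in E (0.0732). Tnfsf11 had the narrowest range, 0.05, and for Tnfrsf13c it was 0.12. Monocyte genes moved between experiments too. Of 8 macrophage and monocyte markers 3 passed the same test (Fcgr1, Ly6c2 and Ccr2), beside 3.35% of all probe sets. Fcgr1 and Ccr2 were highest in E, with means of 8.70 and 6.38. Ly6c2 was near level in E and I (6.96 and 7.01) and lowest in BC (5.66). The summed intensity of the list was 2736 and 2726 in E and between 1879 and 2245 in the other experiments. The mast cell and basophil list was highest in BC (137 and 129), where 1 marker, the carboxypeptidase gene Cpa3, passed. The dendritic cell list had 0 markers that passed the test. The part of these markers in the members' values was not tested.

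**Figure D3:**
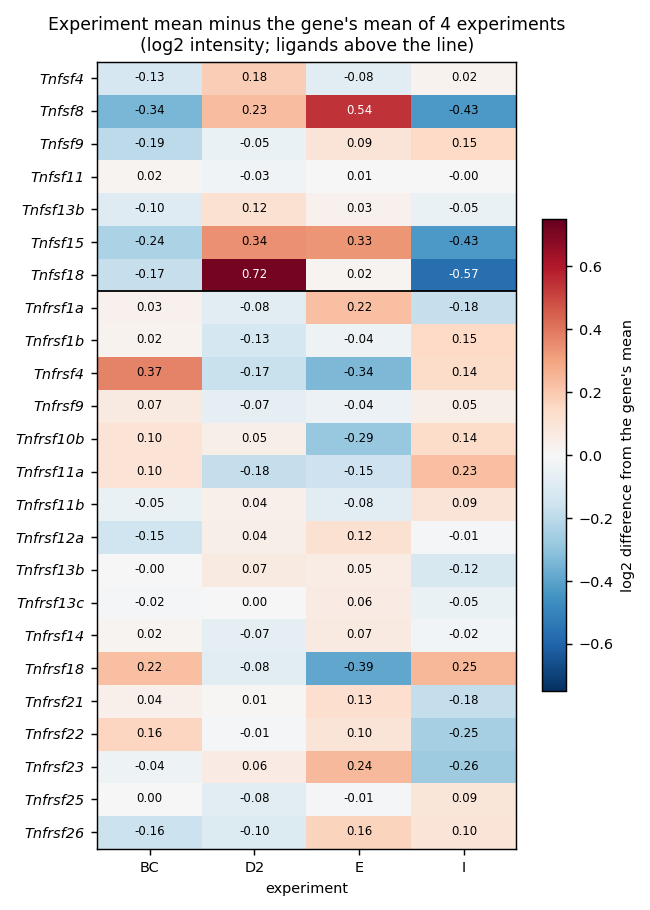
Mean of the medium and SCF arrays of each experiment (columns) minus the gene's mean over the 4 experiments, in log2 units, for the 24 tested members (rows, ligands above the line). Red cells are above and blue cells below the gene's own mean; the rows of Tnfsf8, Tnfsf15 and Tnfsf18 and those of Tnfrsf4 and Tnfrsf18 carry the strongest colours, and Tnfsf18, with values from −0.57 in I to 0.72 in D2, did not pass the test.

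The 4 genes that differed between experiments are 2 pairs of neighbours. In the RefSeq gene order (assembly GRCm38.p6) Tnfsf15 is followed by Tnfsf8, and Tnfrsf4 by Tnfrsf18, with no other protein-coding gene between them. Neighbouring members also occur elsewhere, since 11 of the 29 members lie in 6 such pairs, among them Tnfsf4 with Tnfsf18 and Tnfrsf1b with Tnfrsf8. The neighbours Tnfsf4 and Tnfsf18 both had their highest experiment mean in D2, at 8.62 and 4.85, but Tnfsf4 had its lowest in BC and Tnfsf18 in I. Tnfrsf26 had its lowest in BC, where its neighbour Tnfrsf22 had its highest, while Tnfrsf22 and Tnfrsf23 both had their lowest in I. The promoters of the 4 genes are shown because the neighbours had similar profiles over the experiments and the cells were held under low oxygen. Each is the 250 bases before the annotated start, 5′ to 3′ on the strand of the gene, from RefSeq (GRCm38.p6): chr4:63745060-63745309 on the minus strand for Tnfsf15, chr4:63861285-63861534 on the minus strand for Tnfsf8, chr4:156013445-156013694 on the plus strand for Tnfrsf4 and chr4:156026072-156026321 on the plus strand for Tnfrsf18. Capitals mark matches to the core of the hypoxia response element (ACGTG or GCGTG, both strands).
Tnfsf15: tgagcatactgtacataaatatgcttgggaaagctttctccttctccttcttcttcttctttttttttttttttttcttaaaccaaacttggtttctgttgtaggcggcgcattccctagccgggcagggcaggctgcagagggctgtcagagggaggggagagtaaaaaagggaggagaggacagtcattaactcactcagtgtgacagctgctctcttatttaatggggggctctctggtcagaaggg
Tnfsf8: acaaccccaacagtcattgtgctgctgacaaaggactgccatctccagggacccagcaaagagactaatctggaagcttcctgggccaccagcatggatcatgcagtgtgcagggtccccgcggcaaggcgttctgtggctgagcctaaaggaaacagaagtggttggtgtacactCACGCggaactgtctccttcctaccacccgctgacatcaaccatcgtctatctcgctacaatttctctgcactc
Tnfrsf4: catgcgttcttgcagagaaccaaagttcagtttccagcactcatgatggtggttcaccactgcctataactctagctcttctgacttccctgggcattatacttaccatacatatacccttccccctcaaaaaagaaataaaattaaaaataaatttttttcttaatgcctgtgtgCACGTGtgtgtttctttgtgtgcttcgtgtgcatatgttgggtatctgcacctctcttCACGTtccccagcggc
Tnfrsf18: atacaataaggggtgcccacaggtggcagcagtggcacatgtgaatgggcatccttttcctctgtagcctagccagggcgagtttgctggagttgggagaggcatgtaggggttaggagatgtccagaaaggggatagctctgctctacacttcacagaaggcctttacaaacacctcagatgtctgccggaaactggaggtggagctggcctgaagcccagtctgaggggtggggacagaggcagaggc

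The hypoxia response core was found in Tnfsf8 at 74 to 70 bases before the start, on the opposite strand. In Tnfrsf4 it occurred on both strands at 74 to 69 bases before the start, where the matches overlap, and again on the opposite strand at 16 to 12. The letters of this core were not found in the windows of Tnfsf15 and Tnfrsf18. The same core was present in 38.6% of all 32851 promoters of this length. It was present in 13 of the 27 promoters of members, which belong to 11 of the 23 members with a promoter. The matches therefore do not set these genes apart. None of the 4 windows held the AP-1 site TGANTCA or the NF-kB site (both strands), which were present in 6.75% and 3.90% of all promoters. These matches are descriptions of letters only. Of the same 27 promoters of members, 4 held the AP-1 site (Tnfrsf8, Tnfrsf9, Tnfsf13b and Tnfsf14) and 2 the NF-kB site (Tnfrsf8 and Tnfrsf9).

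Ligands and their receptors were set side by side where both were tested. Tnfsf4 and its receptor Tnfrsf4 had fitted SCF differences of −0.07 and 0.12, and their experiment means ran in different orders, with Tnfsf4 highest in D2 and lowest in BC and Tnfrsf4 highest in BC and lowest in E. Tnfsf18 and Tnfrsf18 had differences of −0.09 and 0.11, with Tnfsf18 lowest and Tnfrsf18 highest in I. Tnfsf15 and Tnfrsf25 were both at or below 0 in every pair, at −0.14 and −0.09. Tnfsf11 beside Tnfrsf11a and Tnfrsf11b stood at −0.02, 0.08 and 0.02, and Tnfsf9 and Tnfrsf9 at 0.0034 and 0.02. Tnfsf13b beside Tnfrsf13b and Tnfrsf13c stood at −0.09, 0.06 and −0.03. No difference between a ligand and its receptor was tested.

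Superfamily genes with names of another form were measured alongside, and 9 of 15 were bright enough to be tested. None of the 9 passed for SCF, and 1 had an unadjusted p under 0.05, beside 4.21% of all probe sets. This was Cd40, the receptor through which T cells license dendritic cells, which measured 7.80, 7.66, 7.58 and 7.79 in medium and 8.10, 7.76, 7.72 and 7.90 with SCF. It was higher with SCF in 4 of 4 experiments, as were 6.43% of all probe sets, by 0.16 (SE 0.06, limma adjusted p = 0.945). Fas, the death receptor gene, differed by 0.07 (SE 0.06), Relt, a TNF receptor relative, by 0.07 (SE 0.05) and Edar, the ectodysplasin receptor gene, by −0.06 (SE 0.05). Tnf itself measured 9.20, 8.90, 9.40 and 8.93 in medium and 9.04, 9.21, 9.36 and 8.75 with SCF, a difference of −0.01 (SE 0.09). The sign of Tnf turned without BC and without I. Between experiments 0 of the 9 passed in limma, where 7 had an unadjusted p under 0.05, beside 24.2% of all probe sets. The smallest adjusted p-values were those of Edar (0.0886), Fas (0.0909), Lta, the lymphotoxin alpha gene (0.126), and Tnf (0.129). The dim genes were Cd40lg, Cd70, Fasl, Eda, Cd27 and Ngfr.

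Genes that carry the signal of these receptors, from TRAF adaptors to the NF-kB subunits, gave 45 tested genes of 50 listed. None passed for SCF. The differences lay above 0 in 22 and below 0 in 23, with a median of −0.0015. An unadjusted p under 0.05 was found for 2 of the 45, beside 4.21% of all probe sets. Both were higher with SCF in 4 of 4 experiments. Of the 45, 6 were higher in all 4 experiments and 4 lower, beside 6.43% and 6.45% of all probe sets. Traf2, an adaptor of TNF receptors, measured 7.69, 7.45, 7.48 and 7.78 in medium and 7.85, 7.54, 7.60 and 7.99 with SCF, a difference of 0.15 (SE 0.05, limma adjusted p = 0.945). Relb, the subunit of the alternative NF-kB pathway, measured 8.13, 7.58, 7.76 and 8.0 in medium and 8.24, 7.84, 7.82 and 8.09 with SCF, a difference of 0.13 (SE 0.05, limma adjusted p = 0.945), or 0.09 without D2. Map3k14, the kinase gene NIK of that pathway, differed by 0.11 (SE 0.05). Mlkl, the executor of necroptosis, differed by −0.19 (SE 0.09), or −0.09 without BC.

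Between experiments 1 of these 45 signalling genes passed, or 2.22%, near the 3.35% of all probe sets. It was Relb, with experiment means from 7.71 in D2 to 8.18 in BC (limma adjusted p = 0.0452). Relb did not pass when any 1 experiment was left out (0.0778 to 0.154). Traf2 (0.057), Mlkl (0.0674) and Fadd, the adaptor of death receptors (0.0763), came next. Mlkl ranged from 5.97 in I to 6.67 in E, and Fadd from 5.98 in D2 to 6.55 in BC.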

How the data were processed

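RNA was read on 1 Affymetrix whole-transcript array per culture. Per the submitters' processing notes the authors used RMA (no version is given in the sources used here), and the deposited values are intensities of single probe sets. Values were linear, so log2 was taken with no further normalization. Of 41345 probe sets, 23521 had 1 gene symbol, 1814 several and 16010 none in the platform annotation used. Each of the 29 members had 1 single-symbol probe set. A further probe set shared by Tnfrsf18 and Gm16008 was dim, with a mean of 3.76, and was not tested. Probe sets with a symbol and a mean log2 intensity of at least 4.05 were tested, 12668 in all.

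SCF was compared with medium in limma 3.58.1 under R 4.3.3. The model held the experiment as a block, tests were two-sided with 7.39 degrees of freedom, and p-values were adjusted after Benjamini and Hochberg across the probe sets tested. The same fit gave the F-test between experiments. The design text ties the 2 arrays of an experiment to the same purified cells; after removal of group means they correlated at 0.36 to 0.46. The fit was tested on simulated data. Whether a culture pooled several animals is not stated, so p-values refer to these experiments. For SCF they rest in part on how the differences within pairs vary over the 4 experiments. For the F-test they rest in part on the spread left within pairs. In both, limma draws this spread toward that of all probe sets tested. Of the 7.39 degrees of freedom, 3 come from the gene's own pairs and 4.39 from that prior.

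All members were named. Values per array were given for members with an unadjusted p under 0.05 or among the 6 smallest, the same sign in 4 experiments, a call between experiments, or a tested partner, and for Tnfrsf23 and Tnfrsf26, chosen after their values were seen. From the other lists up to 4 genes with the smallest p in each comparison were named. Members and lists were chosen with earlier results of these data known. Alternatives covered the intensity filter, scaling, probe set choice, variance prior, block and each experiment left out.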

Additional observations from a re-analysis of the deposited data

Results flagged for a closer look

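In 80 groups of 4 arrays, 4 arrays lay far from the other 3 of their group, and chance alone gives about 1 in 20 groups. Tnfrsf14 measured 5.12 in the medium array of E against 4.92 to 4.93 in the others. Tnfrsf22 measured 4.36 in the SCF array of I against 4.77 to 4.82. Edar measured 4.19 in the SCF array of D2 against 4.50 to 4.53, and Map3k14 measured 7.67 in the medium array of I against 7.43 to 7.47.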

How the results depend on the processing

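For SCF against medium, 0 members, 0 signalling genes and 0 genes with other symbols passed under every alternative run, including the fit with no replicate block (0) and experiment as a random replicate block (0), and the lowest adjusted p of a member was 0.811. The members' median difference went from −0.0256 to −0.0475 after a repeated quantile normalization and lay between −0.0366 and 0.0040 with 1 experiment left out.

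Between experiments the count of members called was 7 of 18 tested with a stricter filter (mean log2 intensity of at least 5), 10 with a variance trend, and 1 to 3 with 1 experiment left out. Over all probe sets the share called moved too, from 3.35% to 11.1% with the stricter filter, 12.1% with the variance trend, 0.766% with no filter, 3.84% with equalized array medians and 0.30% to 1.40% with 1 experiment left out. Signalling genes called were 0 with no filter, 0 with equalized array medians, 5 with the stricter filter, 7 with the variance trend and 0 to 1 with 1 experiment left out. Genes with other symbols went from 0 to 1 with the stricter filter and 2 with the variance trend. These counts are to be read against the shares over all probe sets. The stricter filter left 9209 probe sets, of which 1022 were called, against 424 of 12668 in the main fit. The causes of these changes were not tested.

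Signs turned with equalized array medians for Tnfrsf11b (−0.0036), Tnfrsf21 (−0.0154), Tnfrsf9 (−0.0024) and Tnfsf9 (−0.0158), and after quantile normalization for Tnfrsf12a (−0.0062) and Tnfsf9 (−0.0135). The sign turned with 1 experiment left out for 9 tested members. Of the other genes named for a small p, it turned for Tnf and Fadd. The log2 difference had these ranges: Tnfrsf12a −0.0197 to 0.0669, Tnfrsf13c −0.11 to 0.0484, Tnfrsf21 −0.0243 to 0.0146, Tnfrsf22 −0.0741 to 0.0451, Tnfrsf23 −0.17 to 0.0073, Tnfsf11 −0.0733 to 0.0798, Tnfsf18 −0.20 to 0.15, Tnfsf8 −0.17 to 0.026, Tnfsf9 −0.0665 to 0.0802, Fadd −0.0988 to 0.0285 and Tnf −0.12 to 0.0400.

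The table gives no detection call, so signal over background is unknown, and 4 arrays per group limit the precision.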
